A study of Mus musculus with 8 samples.

Results

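Arterial genes were followed in endothelial cells (ECs) isolated from the lungs of mouse pups that breathed room air or high oxygen. The rule listed 7 names of arterial EC markers outside the Notch and ephrin families, and 6 of them, Gja4, Gja5, Hey2, Bmx, Mgp and Gkn3, were found in the table of 54532 genes. The remaining name, Sema3g_placeholder, is not a gene symbol and matched no gene. All 6 genes passed the filter on low counts and were tested. The pups were WT C57BL/6J mice and differed in the gas they breathed from birth (P0) to P14, when lungs were taken. The normoxia group breathed 21% oxygen and the hyperoxia group 80%. Continued hyperoxia after birth is a mouse model of bronchopulmonary dysplasia, in which lung vessels and alveoli develop poorly. ECs were collected on CD31-coated beads after cells bound to CD45-coated beads had been removed, and each group held 4 RNA-seq libraries. How many pups a library holds was not given in the sources used here. Counts of sex-linked genes in 5 libraries came from both sexes, so each of those held cells of male and female pups.

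Arteries, capillaries and veins are lined by ECs that differ in gene expression. Arterial identity is set in development by VEGF and Notch signaling and by SOX factors, and it is kept up in part by blood flow. Arterial ECs are joined by gap junctions, channels built from connexin proteins that pass ions and small molecules between neighbouring cells. Most ECs of the lung are capillary, so in a whole EC isolate an arterial marker reports on few cells, or on a low level in many. In bulk libraries, fewer arterial cells and less RNA per arterial cell cannot be told apart.

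The data showed a fall of Gja4 and Hey2 in hyperoxia, while Gja5, Mgp and Gkn3 were not past the threshold and Bmx lay just short of it. Gja4, which encodes connexin 37, was 41.2% lower in hyperoxia (95% interval 36.3 to 45.7%). Hey2, a transcriptional repressor that acts downstream of Notch, was 39.3% lower (14.7 to 56.8%), at a much lower level and with groups that overlapped. Gja5, which encodes the other arterial connexin, connexin 40, averaged 94.1 CPM in the normoxia libraries and 88.4 CPM in the hyperoxia libraries, a difference within their spread. CPM is the count of a gene scaled to the TMM-normalized size of its library.

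The upstream windows of the 2 connexin genes and of Hey2 are shown because 1 of the 2 connexin genes was past the threshold and the other was not, and because Hey2 and Gja4 were the members that fell. They are the 250 bases before the RefSeq start site in build GRCm38.p6, on the gene's own strand, 5′ to 3′. Capitals in Gja4 and Gja5 mark TGGGATACCGG, the longest stretch that both windows share, and capitals in Hey2 mark TTCCCA, the reverse complement of TGGGAA, the letters that the Notch partner RBPJ binds.
Gja4, chr4:127314040-127314289, minus strand: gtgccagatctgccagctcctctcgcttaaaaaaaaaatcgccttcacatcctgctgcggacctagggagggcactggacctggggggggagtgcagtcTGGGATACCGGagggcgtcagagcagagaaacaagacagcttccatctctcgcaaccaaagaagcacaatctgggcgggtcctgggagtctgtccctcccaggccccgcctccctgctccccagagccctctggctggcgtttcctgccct
Gja5, chr3:97032152-97032401, plus strand: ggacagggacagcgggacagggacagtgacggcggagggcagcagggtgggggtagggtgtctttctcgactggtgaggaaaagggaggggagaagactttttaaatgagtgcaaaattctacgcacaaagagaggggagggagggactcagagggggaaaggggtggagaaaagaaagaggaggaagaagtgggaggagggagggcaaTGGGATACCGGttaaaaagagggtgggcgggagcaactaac
Hey2, chr10:30842784-30843033, minus strand: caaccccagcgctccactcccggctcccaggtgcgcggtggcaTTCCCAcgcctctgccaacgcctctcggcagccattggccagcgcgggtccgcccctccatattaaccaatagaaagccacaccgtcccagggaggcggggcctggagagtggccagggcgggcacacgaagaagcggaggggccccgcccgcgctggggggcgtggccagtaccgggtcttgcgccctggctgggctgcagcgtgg
The shared stretch of 11 bases was found, on either strand, in 4 of the 32851 promoters of the table, those of Gja4, Gja5, Dao and Vps4a. It begins 151 bases before the start site in Gja4 and 41 bases before it in Gja5. It was picked out after the windows had been compared, and it is a description of letters only. TGGGAA or its reverse complement stood in the windows of Hey2 and Bmx and in 21.6% of all promoters, and it did not overlap the shared stretch. An E-box (CACGTG, 6.02% of promoters), a SOX core (AACAAT or its reverse complement, 9.42%) and a TATA box (TATAAA or its reverse complement, 12.4%) were also searched, and none of the 5 members with a window held these letters there.

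Gja4 was the member with the clearest difference. Gja4 (ENSMUSG00000050234, chromosome 4, 127311421 to 127314039, GRCm38) stood at 209.5, 189, 190.0 and 188 CPM in normoxia 1 to 4. In hyperoxia 1 to 4 it stood at 116, 107, 119.9 and 114 CPM. All 4 hyperoxia libraries lay below all 4 normoxia libraries, and both groups were narrow, with a coefficient of variation of 5.27% in normoxia and 4.65% in hyperoxia. The log2 fold change was -0.77 (SE 0.0522), with an adjusted p of 2.23e-06 in edgeR's quasi-likelihood test. Gja4 was the only member whose groups did not overlap, and 17.6% of all genes tested had every hyperoxia library below every normoxia library. Its exons, 1685 bases in all, overlap no other gene in the GENCODE M21 annotation.

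Gja5 (ENSMUSG00000057123, chromosome 3, 96904693 to 97077416) is known from large arteries and from the conduction system of the heart. In normoxia it stood at 93.9, 86.3, 92.5 and 103.8 CPM. In hyperoxia the values were 77.9, 94.2, 88.8 and 92.7 CPM. The groups overlapped, with hyperoxia 1 below all normoxia libraries and the other 3 inside the normoxia range. The log2 fold change was -0.09 (SE 0.0721, adjusted p 0.360 in edgeR), with a 95% interval of -0.25 to 0.07. A fall as large as that of Gja4 lies outside this interval. Gpr89, a gene at 15.3 CPM on the opposite strand, covers 2.87% of the bases in Gja5 exons, and whether the counting used strand was not stated.

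The ratio of the connexin counts within a library does not depend on how libraries are scaled. There were 2.23, 2.19, 2.05 and 1.81 counts of Gja4 per count of Gja5 in normoxia 1 to 4. The ratio was 1.49, 1.14, 1.35 and 1.23 in hyperoxia 1 to 4. The groups did not overlap, with means of 2.07 ± 0.190 and 1.30 ± 0.152 (SD, n = 4 each, exact two-sided permutation p = 0.0286). That is the smallest p that the 70 assignments of 4 against 4 libraries allow. The ratio was chosen after it had been seen that Gja4 fell and Gja5 did not pass the threshold, so this p restates that difference and is not independent of it. On the log2 scale the ratio changed by -0.68.

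**Figure D1:**
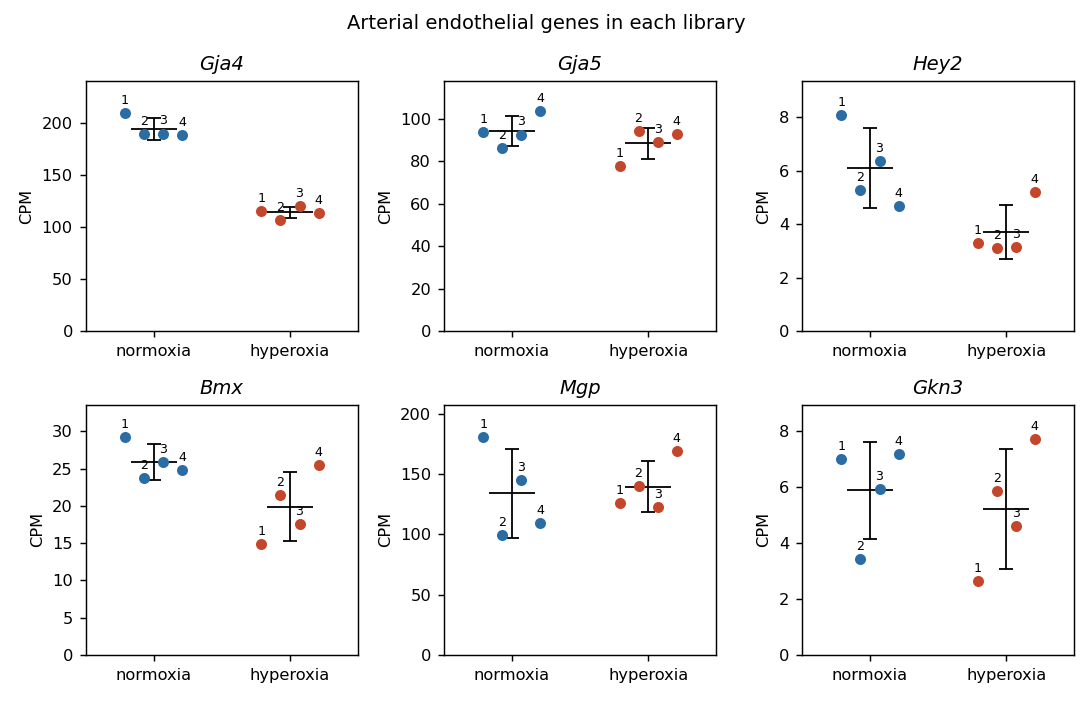
CPM of the 6 arterial genes in the 4 normoxia and 4 hyperoxia libraries. Each point is a library with its replicate number, and the line and bar give the mean and SD of a group. The Gja4 libraries fall into separate ranges of 188 to 209.5 and 107 to 119.9 CPM, while the groups overlap in the other 5 genes.

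**Figure D2:**
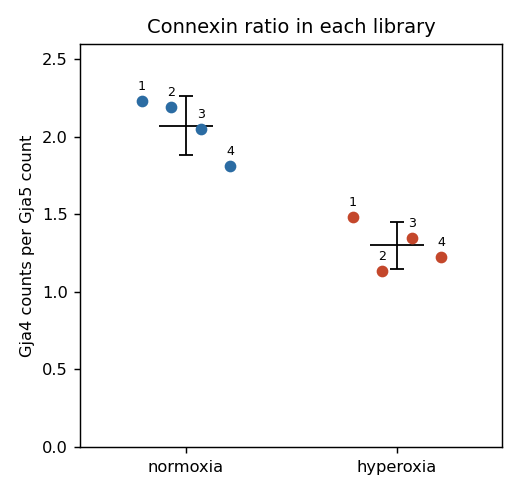
Counts of Gja4 per count of Gja5 in each library, with the replicate number at each point and the mean and SD of each group. The ratio lies between 1.81 and 2.23 in normoxia and between 1.14 and 1.49 in hyperoxia.

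Hey2 (ENSMUSG00000019789, chromosome 10, 30832359 to 30842801) encodes a basic helix-loop-helix repressor needed for arterial fate in development. It was also the scarcest member per gene length, with 85 to 132 counts in the normoxia libraries and 55 to 94 in the hyperoxia libraries. In normoxia 1 to 4 it stood at 8.08, 5.29, 6.38 and 4.70 CPM. In hyperoxia 1 to 4 it stood at 3.31, 3.11, 3.15 and 5.21 CPM. The first 3 hyperoxia libraries lay below all normoxia libraries, and hyperoxia 4 lay above normoxia 4. The log2 fold change was -0.72 (SE 0.222, adjusted p 0.0269 in edgeR, 95% interval -1.21 to -0.23). This call was lost when any of 5 libraries was left out, with an edgeR adjusted p of 0.0745 without normoxia 1, 0.0551 without normoxia 3, 0.0641 without hyperoxia 1, 0.0773 without hyperoxia 2 and 0.0633 without hyperoxia 3. Its value stayed negative in all 25 alternatives.

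Bmx (ENSMUSG00000031377, chromosome X, 164192842 to 164258193) encodes a Tec family tyrosine kinase that, within the vasculature, is known from arterial endothelium. In normoxia it stood at 29.3, 23.8, 25.8 and 24.8 CPM. In hyperoxia it stood at 14.9, 21.5, 17.6 and 25.5 CPM. Hyperoxia 1 to 3 lay below all normoxia libraries, and hyperoxia 4 lay within the normoxia range. The log2 fold change was -0.38 (SE 0.145), and the adjusted p of 0.0631 in edgeR was not past the threshold. Without hyperoxia 4 it was -0.52 with an adjusted p of 0.0107. DESeq2 gave -0.38 with an adjusted p of 0.0396. Because Bmx is X-linked, the sex of the pups was read from Xist and 4 Y-linked genes. Normoxia 2 and hyperoxia 4 had 3 and 5 Xist counts, hyperoxia 3 had 7 Y-linked counts, and the other 5 libraries had at least 8457 Xist and 1553 Y-linked counts. These 5 libraries are normoxia 1, 3 and 4 and only hyperoxia 1 and 2. Over them alone, which also leaves out hyperoxia 4, the log2 fold change of Bmx was -0.54 (adjusted p 0.0428 in edgeR). With the Y-linked share of counts in the model it was -0.37 and not past the threshold (edgeR adjusted p 0.0708). Bmx was past the threshold in 1 of 8 fits with 1 library left out and in 6 of 25 alternatives.

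Mgp (ENSMUSG00000030218, chromosome 6, 136872435 to 136875823) encodes matrix Gla protein, a secreted inhibitor of calcification that also binds bone morphogenetic proteins and is made by arterial ECs, smooth muscle, fibroblasts and cartilage. In normoxia it stood at 181, 99.6, 145 and 109.7 CPM. In hyperoxia it stood at 126, 140.3, 122 and 169 CPM. The hyperoxia libraries all lay inside the normoxia range. The log2 fold change was 0.06 (SE 0.172, adjusted p 0.823 in edgeR, 95% interval -0.32 to 0.44), and its sign changed in 7 of 25 alternatives, none of which made a call.

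Gkn3 (ENSMUSG00000030048, chromosome 6, 87383256 to 87388935) belongs to the gastrokines, secreted proteins first known from the stomach, and it marks arterial ECs in mice. In normoxia it stood at 6.98, 3.41, 5.93 and 7.18 CPM. In hyperoxia it stood at 2.63, 5.83, 4.58 and 7.71 CPM. It was the most variable member, with a coefficient of variation of 29.5% in normoxia and 41.2% in hyperoxia and only 46 to 139 counts a library. The log2 fold change was -0.18 (SE 0.311, adjusted p 0.694 in edgeR). Its 95% interval ran from -0.87 to 0.51, so a fall as large as that of Gja4 lies inside the interval of Gkn3. Gkn1 and Gkn2 had no count in any library. For a single library, no count leaves an expected count of up to about 3 within a 95% limit.

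Of the 6 genes, 2 (33.3%) were past an adjusted p of 0.05 against 35.6% of the 15564 genes tested, so the share of members past the threshold was close to that of all genes. Both were lower in hyperoxia, against 17.1% of all genes past the threshold and lower. The median log2 fold change was -0.28 over the 6 members and -0.0040 over all genes tested. No member reached an absolute log2 fold change of 1 with an adjusted p under 0.05, a combination met by 6.98% of all genes.

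The same library was often the highest or lowest of its group for several members. Some library always holds that place, and how often each did so over all genes was not examined. Hyperoxia 4 was the highest hyperoxia library for 4 of the 6 genes, Hey2, Bmx, Mgp and Gkn3, and hyperoxia 1 was the lowest for Gja5, Bmx and Gkn3. Among the normoxia libraries, normoxia 2 was the lowest for Gja5, Bmx, Mgp and Gkn3, and normoxia 1 was the highest for Gja4, Hey2, Bmx and Mgp. For Gja4, hyperoxia 4 was neither highest nor lowest and stood at 114 CPM, near the hyperoxia mean.

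The genes most like each member were sought among 9076 or 9077 protein-coding genes of at least 10 CPM, by Pearson's r of the deviations from the group means over 8 libraries. Bmx was followed most closely by Ltbp4, Rtn4 and Cdkn1c (r = 0.975, 0.963 and 0.956) and Hey2 by Chchd7, Maf and Sfrp1 (0.969, 0.963 and 0.961). For Mgp they were Thap11, Nt5m and Tmbim1 (0.984, 0.978 and 0.978) and for Gkn3 1600012H06Rik, Kctd12 and Dusp22 (0.992, 0.975 and 0.962). For Gja4 they were Nprl3, Hsp90ab1 and Mrgbp (0.954, 0.952 and 0.948) and for Gja5 Myadm, Mfap3 and Ube2d2a (0.957, 0.951 and 0.95). With 8 libraries and this many genes, values this high are picked as the largest of many. Between members, described the same way over 8 libraries, r was highest for Gja5 with Gkn3 (0.893), Hey2 with Mgp (0.874) and Bmx with Gkn3 (0.862), and it was -0.273 between Gja4 and Gja5.

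Levels were compared between genes on the FPKM scale, the authors' count per kilobase of gene length and library total. In normoxia Gja4 (114 ± 6.28 FPKM) and Mgp (112 ± 31.3 FPKM) were highest and did not differ beyond their spread (SD, n = 4 each). Gja5 followed at 16.3 ± 1.29 FPKM, then Bmx at 8.32 ± 0.790 FPKM and Gkn3 at 6.81 ± 2.02 FPKM, which overlapped, and Hey2 at 1.32 ± 0.325 FPKM. In hyperoxia Mgp (117 ± 17.5 FPKM) stood above Gja4 (67.4 ± 3.11 FPKM) without overlap, and the order of the other 4 was the same, with Gja5 at 15.3 ± 1.30 FPKM, Bmx at 6.40 ± 1.49 FPKM, Gkn3 at 6.03 ± 2.48 FPKM and Hey2 at 0.800 ± 0.218 FPKM. Bmx and Gkn3 again overlapped.

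**Figure D3:**
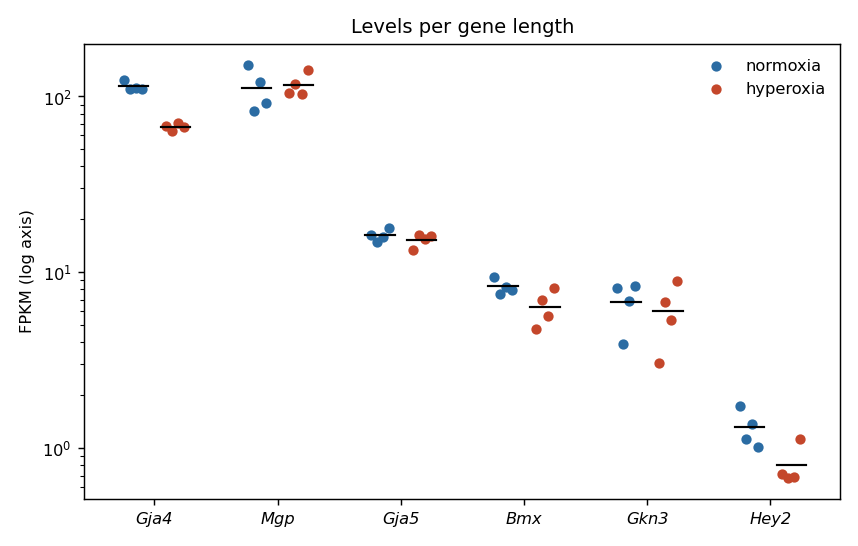
FPKM of the 6 genes on a log axis, with a point for each library and a line at the mean of each group of 4. Gja4 and Mgp lie together near 114 and 112 FPKM in normoxia, and in hyperoxia Gja4 lies at 67.4 FPKM, below all Mgp libraries.

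Other arterial EC genes split in direction. Of 18 genes known from arterial ECs, 5 rose, 5 fell and 8 were not past the threshold, and the median log2 fold change was 0.11. By comparison, 18.5% of all genes tested rose and 17.1% fell. Sema3g, a secreted semaphorin of arterial ECs, was the most abundant and fell from 1031.5 ± 63.7 CPM in normoxia to 657 ± 41.3 CPM (edgeR adjusted p 1.91e-05, log2 fold change -0.65). The chemokine gene Cxcl12 and its receptor gene Cxcr4 also fell, by 0.60 and 1.19 on the log2 scale (adjusted p 0.000315 and 2.43e-05 in edgeR). Fbln5, which encodes an elastic fibre protein, averaged 369 ± 52.1 CPM in normoxia and rose to 587 ± 83.7 CPM in hyperoxia (edgeR adjusted p 0.00114, log2 fold change 0.67). The largest rises were those of Depp1, a FOXO target, from 6.81 ± 1.70 to 26.7 ± 5.07 CPM, and of Atp13a3, a polyamine transporter, from 48.3 ± 3.36 to 139.8 ± 22.3 CPM. Their log2 fold changes were 1.97 and 1.53 (edgeR adjusted p 1.91e-05 and 3.03e-06). All SDs are over 4 libraries, and the groups did not overlap in any of these 6 genes. These genes were named for fold changes past the threshold or for abundance, so their lack of overlap is in part a result of that choice. Of all genes tested, 17.6% had every hyperoxia library below every normoxia library and 17.8% had every one above. With a score of alveolar type 2, smooth muscle or fibroblast markers in the model (the mean log2 CPM of the list in a library), the log2 fold change of Fbln5 was 0.27, 0.17 and 0.43, and none was past the threshold (edgeR adjusted p 0.791, 0.643 and 0.0754). That of Cxcl12 was -0.29 and -0.46 with the first 2 scores (0.701 and 0.205), which ended its call. Sema3g (-0.33, 0.450), Cxcr4 (-1.48, 0.0888) and Depp1 (1.36, 0.262) were not past the threshold with the alveolar type 2 score, while Atp13a3 was past it with each of the 3 scores. Among all 15564 genes tested, 197, 731 and 2256 were past the threshold with the 3 scores, against 5535 without a score. Some genes of this list are also expressed in capillary or lymphatic ECs or in fibroblasts.

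Of 12 genes of the arterial Notch and ephrin pathways, 6 fell, 1 rose and 5 were not past the threshold, with -0.19 as the median log2 fold change. The shares over all genes tested were 17.1% lower and 18.5% higher. The libraries are whole EC isolates, so whether these changes lay in arterial or in other ECs was not tested. The 7 calls became 0, 2 and 3 with the alveolar type 2, smooth muscle and fibroblast scores in the edgeR model, and 3 of the 12 had an unadjusted p under 0.05 with the first. Calls over all 15564 genes tested also dropped, from 5535 without a score to 197, 731 and 2256 with these scores. Hey1, the closest relative of Hey2 and a Notch target as well, averaged 274 ± 21.7 CPM in normoxia and fell to 158 ± 11.0 CPM in hyperoxia (edgeR adjusted p 1.05e-05, log2 fold change -0.80). The ligand gene Efna1 fell from 204 ± 4.85 CPM in normoxia to 118 ± 7.46 CPM (edgeR adjusted p 1.66e-06, log2 fold change -0.79). Efnb2, the arterial ephrin, ran from 1164 to 1539 CPM in normoxia and fell to between 919 and 999 CPM (edgeR adjusted p 0.00189, log2 fold change -0.46). Efnb2 was not past the threshold with any of the 3 scores (-0.24, -0.33 and -0.40, edgeR adjusted p 0.783, 0.391 and 0.0805), and Hey1 (-0.69, 0.190) and Efna1 (-0.55, 0.106) were not with the alveolar type 2 score. The fall of Rbpj was small (log2 fold change -0.16, adjusted p 0.0316 in edgeR, 0.0649 in DESeq2). Leaving out any 1 of normoxia 1, normoxia 4, hyperoxia 1, hyperoxia 2 and hyperoxia 4 ended the call (edgeR adjusted p 0.0680 to 0.0886). Notch1 went from 784 to 668 CPM (adjusted p 0.0936 in edgeR), and without normoxia 1 or normoxia 3 it was past the threshold (adjusted p 0.0329 and 0.0351). The VEGF and semaphorin coreceptor gene Nrp1 was the only riser (818 to 912 CPM, log2 fold change 0.16, adjusted p 0.0176 in edgeR), and its adjusted p was 0.0548 without normoxia 1 and 0.0654 without hyperoxia 2.

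**Figure D4:**
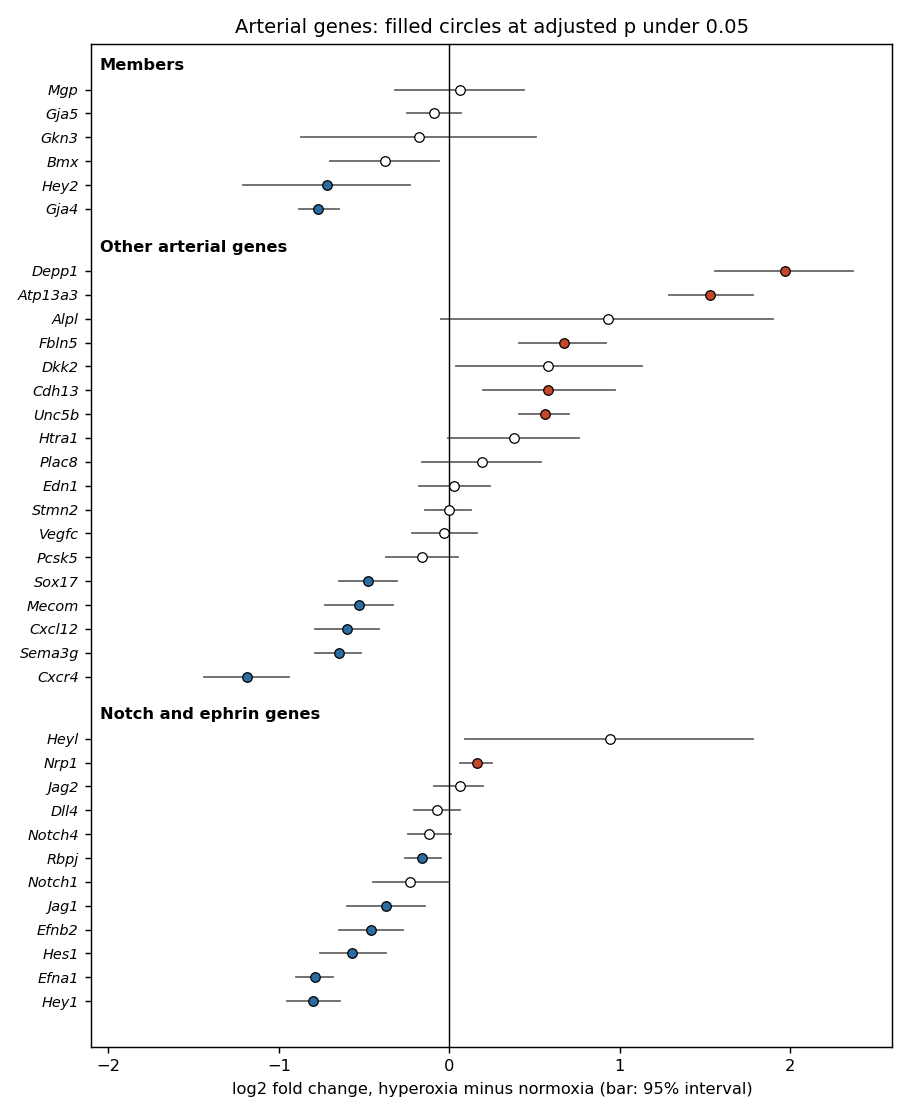
Log2 fold changes of the 6 members, 18 other arterial genes and 12 Notch and ephrin genes in hyperoxia relative to normoxia, with 95% intervals. Filled circles have an adjusted p under 0.05, blue for lower and red for higher in hyperoxia, and they number 2 of 6, 10 of 18 and 7 of 12 in the 3 groups.

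The families of the members were followed as well. Of 20 other gap junction genes, 3 passed the filter and 6 had no count in any library. Gja1, which encodes connexin 43, had 29.2 ± 4.82 CPM in normoxia and rose to 37.8 ± 2.67 CPM in hyperoxia (edgeR adjusted p 0.0176, 0.0551 without normoxia 4, log2 fold change 0.37). Gjc1, which encodes connexin 45, fell by 0.26 on the log2 scale and the pannexin gene Panx1 rose by 0.22 (adjusted p 0.0363 and 0.0485 in edgeR). Neither was past the threshold in most fits with 1 library left out, 6 of 8 for Gjc1 and 7 of 8 for Panx1. The Tec family kinases Tec, Btk and Txk stood between 0.863 and 4.71 CPM in either group, and none was past the threshold (adjusted p 0.219 to 0.601 in edgeR), with 0 of 3 at an unadjusted p under 0.05 and 0 of 3 called by DESeq2. Matrix Gla protein is carboxylated by a vitamin K-dependent enzyme. The gene of that enzyme, Ggcx, had 32.6 ± 0.363 CPM in normoxia and rose to 39.2 ± 2.17 CPM in hyperoxia (edgeR adjusted p 0.00314, log2 fold change 0.27). Vkorc1l1, which recycles vitamin K, had 52.7 ± 2.38 CPM in normoxia and fell to 46.6 ± 2.46 CPM in hyperoxia (edgeR adjusted p 0.0280, log2 fold change -0.18), a call lost without any 1 of 5 libraries, normoxia 1, normoxia 3, normoxia 4, hyperoxia 1 and hyperoxia 2. Its relative Vkorc1 stood at 3.14 and 3.03 CPM. The calls of Gja1, Gjc1, Panx1, Ggcx and Vkorc1l1 were each lost with each of the 3 cell scores. Most calls over all genes were lost as well, with 5535 past the threshold without a score. With the alveolar type 2, smooth muscle and fibroblast scores 197, 731 and 2256 were past it.

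Markers of cell types were counted as well, and some lists differed between the groups while others did not. Of all genes tested, 35.6% were past the threshold, 18.5% higher and 17.1% lower in hyperoxia. The summed level of 12 pan-endothelial markers, of which Cdh5, Pecam1 and Cldn5 were the most abundant, was 16858 to 17756 CPM in normoxia and 16669 to 17548 CPM in hyperoxia. Single markers in it moved, with 4 higher and 3 lower past the threshold, among them Tek (log2 fold change -0.79) and Eng (0.43), which are named here after their values were seen. With libraries scaled to this sum Gja4 had a log2 fold change of -0.77 and Hey2 of -0.73 (edgeR adjusted p 5.38e-06 and 0.0299). General capillary markers fell in 5 and rose in 2 of 8. Of the 3 most abundant, Ptprb fell, Cd93 rose (log2 fold change 0.23, edgeR adjusted p 0.0267) and Plvap had a log2 fold change of 0.01. Aerocyte capillary markers (most abundant Prx, Apln and Tbx2) rose in 7 of 8. The summed levels in normoxia and hyperoxia were 9645 to 11338 against 7833 to 9126 CPM for the general capillary markers and 1893 to 2276 against 3559 to 4013 CPM for the aerocyte markers. Venous markers rose in 5 of 9 tested (2586 to 3271 against 2790.1 to 3684 CPM), and of the 3 most abundant Slc6a2 rose while Vwf (0.23) and Ephb4 (-0.17) were not past the threshold. Lymphatic markers (most abundant Lyve1, Flt4 and Mmrn1) rose in 6 of 8 (1261 to 1348 against 1889 to 2156 CPM).
Markers of smooth muscle and pericytes, cells that can also express Mgp, Gja4 and Hey2, had Rgs5, Pdgfrb and Notch3 as the most abundant. They rose in 7 of 10 tested, from 48.8 to 85.7 CPM in all in normoxia to 105.6 to 186 CPM in hyperoxia. Fibroblast markers (most abundant Col3a1, Col1a2 and Col14a1) rose in 6 of 11 tested, and Col14a1 fell (188 to 319 against 248 to 501 CPM). Alveolar type 2 markers (most abundant Sftpc, Abca3 and Sftpb) rose in 10 of 10 (252 to 355 against 806 to 2413 CPM) and alveolar type 1 markers (Ager, Hopx and Spock2) in 8 of 8 (85.7 to 109 against 188 to 532 CPM). Cartilage markers summed to 26.5 to 51.4 and 22.7 to 36.9 CPM, with Cytl1, Sox9 and Comp the most abundant. Of 2 tested 1 was higher, and Cytl1 was lower (log2 fold change -0.73, edgeR adjusted p 0.0421), and Col2a1, which defines cartilage, stood at 0.355 and 0.339 CPM. Markers of the heart muscle around pulmonary veins, which could carry Gja5, summed to 12.8 to 14.5 and 9.04 to 11.8 CPM, with Myl4, Tnni3 and Tnnt2 the most abundant. Of 3 tested 1 was higher, and Myl4 was lower (log2 fold change -0.77, edgeR adjusted p 0.000272), with Nkx2-5 at 0 and Myh6 at 0 in normoxia and at most 0.227 CPM in hyperoxia.
Airway markers (Tppp3, Foxj1, Scgb1a1, 58.6 to 79.8 against 79.0 to 109.8 CPM, 1 of 3 tested higher), mesothelial markers (Upk1b, Msln, Wt1, 0.608 to 2.39 against 2.06 to 4.85 CPM, 1 of 2 higher), macrophage and monocyte markers (Lyz2, Ptprc, Csf1r, 177 to 361 against 235 to 527 CPM, 2 higher and 1 lower of 9), neutrophil markers (S100a9, S100a8, Csf3r, 10.5 to 41.6 against 17.7 to 92.4 CPM, none of 6) and lymphocyte markers (Cd79a, Ms4a1, Cd79b, 39.7 to 96.7 against 54.8 to 84.6 CPM, none of 6) were also counted, and their part in the results was not tested. In the last 2 lists no gene had an unadjusted p under 0.05 in edgeR or was called by DESeq2. The airway list and the macrophage and monocyte list each had 33.3% past the threshold, close to the 35.6% of all genes.

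The members were refitted with the same scores of these cells in the model. With the smooth muscle and pericyte score, the log2 fold change of Gja4 was -0.79 (edgeR adjusted p 0.00444) and that of Hey2 was -1.33 (0.114). With the fibroblast score they were -0.76 (0.000297) and -1.09 (0.0440). With the alveolar type 2 score they were -0.69 (0.0837) and -1.57 (0.370), so neither was called. The alveolar type 2 score ran from 3.53 to 4.12 in normoxia and from 5.30 to 6.71 in hyperoxia. The smooth muscle and pericyte score ran from 1.42 to 2.21 in normoxia and from 2.38 to 3.21 in hyperoxia. Neither score overlapped between the groups, so neither can be told apart from the group. The fibroblast score overlapped between the groups. Of all genes tested, 197 were past the threshold with the alveolar type 2 score and 731 with the smooth muscle and pericyte score.

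**Figure D5:**
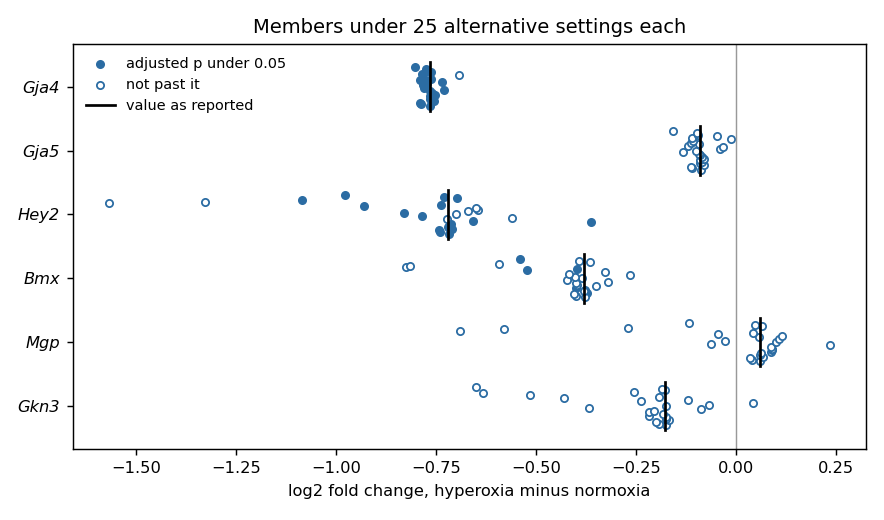
Log2 fold change of each member under 25 alternative settings, with the value as reported as a black line. Filled points have an adjusted p under 0.05. Gja4 lies between -0.80 and -0.69 with 24 of 25 points filled, Hey2 is filled in 17 and Bmx in 6, and Gja5, Mgp and Gkn3 have no filled point.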

How the data were processed

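RNA of CD31-selected lung ECs was sequenced as paired ends, 2 × 150 bases. The submitters' processing notes name HISAT2 2.0.5, featureCounts 1.5.0-p3 and build mm10, and settings for strand and for reads that match several genes were not given in the sources used here. The authors deposited whole-number counts per gene and FPKM for the same 8 libraries, and the deposited FPKM equalled count over gene length and library total, times a constant per library of 0.974 to 1.015. Libraries held 16098086 to 18300730 counts. Groups came from the sample titles.

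Counts were tested with edgeR 4.0.16 (R 4.3.3), by the quasi-likelihood test with TMM, filterByExpr and the group as the only term. P-values were adjusted by Benjamini-Hochberg over 15564 genes, with a threshold of 0.05. SE follows from the F statistic. The study had used DESeq2. DESeq2 1.42.0 and limma 3.58.1 (voom on the counts, or log2 FPKM with a pseudocount of 1 or 0.1) were alternatives. With nothing saying that libraries are separate litters, p-values measure the spread between these libraries, which may in part be technical. The members and gene lists were chosen with earlier results of these data known. Named beside the members were, in each of the arterial and Notch lists, the 2 highest and 2 lowest fold changes past the threshold and the 3 most abundant genes, and the tested genes of a member's family. Some genes of these lists are not reported here and are left out of the list counts and sums. Cell type lists are given by their sums and 3 most abundant genes, and each member by the 3 genes most like it. The test was checked on simulated counts.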

Additional observations from a re-analysis of the deposited data

Results flagged for a closer look

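Some libraries lay far from the other 3 of their group, past Dixon's 95% critical value for the distance to the neighbouring value relative to the range, which chance exceeds in about 1 of 20 groups. Of 56 groups examined, 6 met this, against 2.8 by chance. Among the members these were Gja4 in normoxia 1 (209.5 CPM, the other 3 at 188 to 190.0) and Hey2 in hyperoxia 4 (5.21 CPM, the other 3 at 3.11 to 3.31). The others were Atp13a3 in hyperoxia 1 (106.5 CPM, low), Gja1 in normoxia 2 (36.4 CPM, high), Rbpj in hyperoxia 3 (55.4 CPM, high) and Vkorc1 in normoxia 4 (3.70 CPM, high). Without normoxia 1 the log2 fold change of Gja4 was -0.73, and without hyperoxia 4 that of Hey2 was -0.93 (edgeR adjusted p 0.00745).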

How the results depend on the processing

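Gja4 was past the threshold in 24 of 25 alternatives (-0.80 to -0.69), Hey2 in 17 (-1.57 to -0.36), Bmx in 6 (-0.83 to -0.26), and Gja5, Mgp and Gkn3 in none. The count of members past it was 2, and 1 to 3 with 1 library left out, 1 with the replicate block, 0 with the alveolar type 2 score (2 at an unadjusted p under 0.05 in edgeR), 1 with the smooth muscle and pericyte score and 0 with a minimum log2 fold change of 1. The replicate numbers share only a number: same-numbered libraries had correlations of deviations of 0.119, 0.0361, -0.125 and -0.140. Normoxia 1 was the only library that correlated best with its own number. With the replicate block 4792 genes were past the threshold, and Hey2 had an adjusted p of 0.0547. With the alveolar type 2, smooth muscle and fibroblast scores, the genes past the threshold numbered 197, 731 and 2256, and those also past the fold minimum 148, 307 and 629, against 5535 and 1087 without a score (330 on log2(FPKM + 1)). With the same scores, 1, 5 and 8 of the other arterial genes and 0, 2 and 3 of the Notch and ephrin genes were past the threshold in edgeR, where 3 of the latter had an unadjusted p under 0.05 with the alveolar type 2 score. With 1 library left out, other arterial genes ran from 9 to 11, Notch and ephrin genes from 5 to 8, all genes from 4526 to 5445 and those past both thresholds from 1011 to 1287.

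The sign turned under some settings. Mgp ran from -0.063 to 0.23 with 1 library left out and was -0.69, -0.58 and -0.27 with the alveolar type 2, smooth muscle and fibroblast scores and -0.12 over the 5 libraries with counts of both sexes. Gkn3 ran from -0.43 to 0.043 with 1 library left out. With the alveolar type 2 score the values were -0.80 for Btk, 0.13 for Gjc1, 0.053 for Notch1, 0.059 for Rbpj and -1.08 for Tec. With the smooth muscle score Btk was -0.18 and Tec -0.60, and with the fibroblast score Tec was -0.32. With 1 library left out, Tec ran from -0.00049 to 0.50 and Vkorc1 from -0.20 to 0.075, and Vkorc1 was 0.15 over those 5 libraries. The cause was not tested. The fits on the Y-linked share, on pan-endothelial counts and over the 5 libraries were chosen after seeing the data.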
